A study of Mus musculus with 18 samples.

Results

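The 103 immunoglobulin light chain variable (V) genes in the table of sorted bone marrow LSK cells were described here, 100 of them kappa (Igkv) and 3 lambda (Iglv), out of 19780 genes in that table. Members were taken by name and by gene type: the symbol begins with Igkv or Iglv and GENCODE M21 types the gene as IG_V_gene, which leaves out 12 V pseudogenes present in the same table. All 103 genes that the annotation lists under this rule were in the LSK table, and 76 of them were in the table of common myeloid progenitors (CMP). The family was chosen by the measured immunoglobulin read levels of the lupus-prone and control samples, which were already known, so its higher level in the lupus-prone strain is given as a description, not as a test of independent genes.

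RNA sequencing had been done on LSK cells of 4 groups of female mice, with 3 samples in each. F1-P were NZBW/F1 mice before disease, 12 weeks old, and F1-L were NZBW/F1 mice with lupus, 28 to 36 weeks old and with proteinuria. B6-Y and B6-O were C57BL/6 controls matched to them in age, young at 12 weeks and old at 28 to 36 weeks. CMP were sequenced from F1-P and F1-L only, again with 3 samples each. NZBW/F1 mice, the first-generation cross of the NZB and NZW strains, develop a lupus-like disease with autoantibodies and nephritis, without any engineered allele. F1 and B6 groups therefore differed in strain throughout, and F1-L differed from F1-P in age as well as in disease. LSK is the sorted fraction that lacks the lineage markers CD11b, Gr-1, Ter119, B220 and CD16/32 and carries Sca-1 and c-Kit, which holds haematopoietic stem and early progenitor cells. CMP were sorted with CD34 added to the gate, and the stated purity was at least 95%. The listed gate held no antibody to CD138, the surface protein of plasma cells encoded by Sdc1.

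A light chain is one of the paired polypeptides of an antibody, and each B cell builds it by joining a single V gene to a joining (J) gene and a constant gene, either at the kappa locus or, less often in mice, at a lambda locus. The V gene supplies most of the antigen-binding part of the chain, and the bases just past its last conserved cysteine form the start of CDR3, the most variable loop. Plasma cells transcribe the joined gene at very high level, whereas haematopoietic stem and progenitor cells have not joined it. Reads per V gene describe V gene use, weighted by how much each source cell transcribes, and do not count different light chains, since many chains can share a V gene.

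The V exons of Igkv14-126 and Igkv5-39, which held high shares in the B6 and lower shares in the F1 samples, are shown whole because the results return to them most often, and the CDR3-coding ends of the other leading genes follow. Sequences are the transcripts of GENCODE M21 on GRCm38/mm10, written 5′ to 3′ on the coding strand. Igkv14-126 (ENSMUSG00000094345.2) has its V exon at chr6:67896345-67896642 on the plus strand. Igkv5-39 (ENSMUSG00000076569.3) has its V exon at chr6:69900424-69900710 on the minus strand.
Igkv14-126: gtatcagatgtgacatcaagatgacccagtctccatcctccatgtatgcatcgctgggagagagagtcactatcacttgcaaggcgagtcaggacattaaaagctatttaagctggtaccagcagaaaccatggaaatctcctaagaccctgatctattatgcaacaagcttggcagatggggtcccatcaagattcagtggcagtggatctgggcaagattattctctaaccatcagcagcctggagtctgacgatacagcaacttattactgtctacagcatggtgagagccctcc
Igkv5-39: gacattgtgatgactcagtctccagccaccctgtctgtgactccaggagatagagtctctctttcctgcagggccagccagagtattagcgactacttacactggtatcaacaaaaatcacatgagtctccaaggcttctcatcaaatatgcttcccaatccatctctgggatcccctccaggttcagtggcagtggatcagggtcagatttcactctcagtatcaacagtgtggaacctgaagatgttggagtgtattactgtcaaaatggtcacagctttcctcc

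The ends of the same exons and of the other leading genes are compared here, with the cysteine codon as the last lower-case bases and the germline start of CDR3 in capitals. They lie at chr6:67896560-67896642 for Igkv14-126, chr6:69900424-69900506 for Igkv5-39, chr6:68437843-68437925 for Igkv15-103, chr6:68862265-68862347 for Igkv1-88, chr6:68834846-68834928 for Igkv12-89, chr6:67861577-67861659 for Igkv17-127, chr6:67791429-67791511 for Igkv14-130, chr16:19085017-19085100 for Iglv1 and chr16:19260401-19260484 for Iglv2.
Igkv14-126: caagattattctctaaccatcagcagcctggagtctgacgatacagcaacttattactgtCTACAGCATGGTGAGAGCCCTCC
Igkv5-39: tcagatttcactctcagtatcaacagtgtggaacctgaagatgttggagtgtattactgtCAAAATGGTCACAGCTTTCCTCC
Igkv15-103: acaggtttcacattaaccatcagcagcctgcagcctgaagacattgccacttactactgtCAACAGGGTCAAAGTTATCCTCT
Igkv1-88: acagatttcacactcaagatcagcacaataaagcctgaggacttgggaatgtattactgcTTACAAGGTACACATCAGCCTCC
Igkv12-89: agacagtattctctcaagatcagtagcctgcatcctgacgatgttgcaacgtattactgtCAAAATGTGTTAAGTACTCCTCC
Igkv17-127: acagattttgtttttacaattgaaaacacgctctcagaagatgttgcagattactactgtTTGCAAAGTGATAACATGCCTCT
Igkv14-130: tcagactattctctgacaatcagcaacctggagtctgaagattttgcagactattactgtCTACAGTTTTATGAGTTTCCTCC
Iglv1: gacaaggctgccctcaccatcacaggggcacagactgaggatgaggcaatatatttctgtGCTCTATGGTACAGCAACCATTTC
Iglv2: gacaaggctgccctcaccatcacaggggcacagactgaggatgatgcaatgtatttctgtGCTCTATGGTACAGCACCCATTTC

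How well reads can be told apart between such genes limits each value. Of the windows of 75 bases, the read length, that can be laid on a member's exons, a median of 94.4% over the members occurred in no other immunoglobulin gene, and 37 members had every window to themselves. Igkv14-126, Igkv15-103, Igkv5-39, Igkv1-88, Igkv12-89 and Igkv14-130 were among those 37. Igkv17-127 and Igkv17-121 shared 97.9% of aligned V exon bases, with 6 mismatches, and Iglv1 and Iglv2 shared 97.4%, with 8 mismatches, so the split of reads within each of these pairs is uncertain. Reads of NZB and NZW chromosomes had been aligned to the C57BL/6 reference, and the effect of strain differences in sequence on these counts was not tested.

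The libraries held 23772252 to 28493747 reads on listed genes in LSK and 20001328 to 24761060 in CMP. Sample B6-O 3 stood apart from the other B6-O samples in immunoglobulin reads, at 4.76% of all reads against 0.503% and 0.301%, so fitted values and ratios that rest on B6-O are also given without it. Markers of LSK and stem cells (10 genes) summed to normalised values of 2240 to 2820 in B6-Y and 2144 to 3047 in B6-O. The sums were 1854 to 2314 in F1-P, 1614 to 2065 in F1-L and 862 to 1584 in CMP samples. By the limma call defined below, 5 were lower and 1 higher in F1-P against B6-Y (16.2% of all genes called). In F1-L against B6-O 3 were lower and 1 higher (11.6%), with B6-O 3 and without it (16.2%). Ly6a, which encodes Sca-1, lay between 35.5 and 879 over the LSK samples of all groups together. In CMP samples it lay between 1.14 and 6.70, although the study's methods list CMP as positive for Sca-1. A normalised value is the deposited number, CPM computed on a library size that the authors had scaled.

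Light chain V genes took a larger share of reads in F1 than in B6 LSK samples, and a very small share in CMP. In B6-Y the share was 0.155%, 0.503% and 0.502% of all reads, and in B6-O it was 0.0864%, 0.0468% and 0.771%. F1-P had 3.23%, 5.87% and 6.27%, and F1-L had 2.86%, 3.53% and 4.32%. All 6 F1 samples were above all 6 B6 samples, whereas F1-L and F1-P overlapped, as did B6-O and B6-Y. As a ratio of geometric means, F1-P was 14.5-fold above B6-Y and F1-L 24.1-fold above B6-O, or 55.4-fold when B6-O 3 was left out and 13.6-fold without B6-O 2. F1-L stood at 0.715 of F1-P, with a range of 0.580 to 0.808 as each sample was left out in turn. B6-O stood at 0.431 of B6-Y, at 0.187 without B6-O 3 and at 0.761 without B6-O 2. In the CMP samples the genes took 0.00350%, 0.0169% and 0.0338% of reads in F1-P and 0.00249%, 0.00115% and 0.00456% in F1-L, which overlapped. Counting error was small beside these differences, since the exact 95% binomial interval of any LSK share reached at most 0.00945 percentage points to either side.

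**Figure D1:**
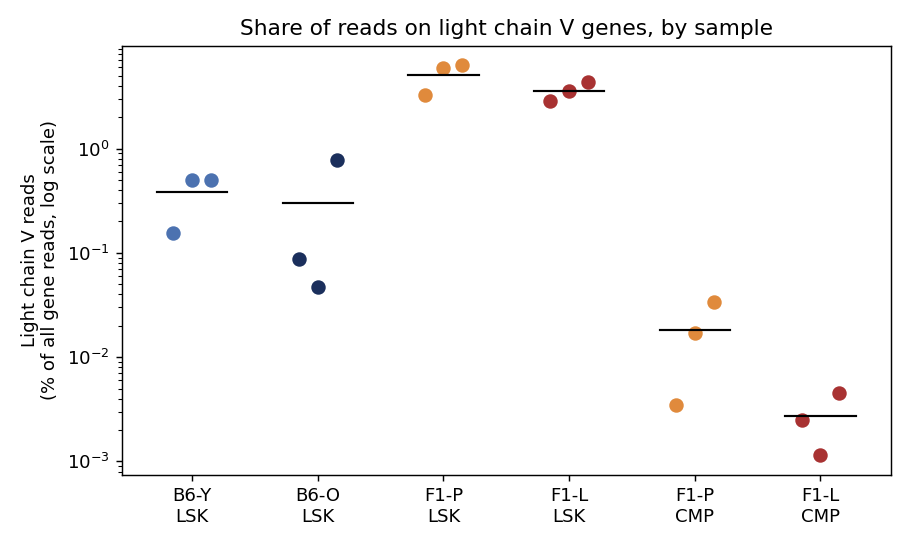
Share of gene reads that fell on the 103 light chain V genes (y axis, percent, log scale) in each LSK and CMP group (x axis). Each point is 1 sample and each black line a group mean (n = 3). The 6 F1 LSK samples sit between 2.86% and 6.27%, above the 6 B6 LSK samples at 0.0468% to 0.771%, and the CMP samples lie at 0.0338% or less.

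The V reads moved with the rest of the antibody transcript. Kappa V reads per read of Igkc, the kappa constant gene, ran from 0.562 to 0.866 over the 12 LSK samples, with the lowest in B6-O 3 and 0.719 to 0.776 in F1 samples. Light chain V reads outnumbered heavy chain V reads by 1.59 to 2.63 times. Igkc itself had normalised values of 36060 to 63935 in F1-L, 43644 to 103934 in F1-P, 1523 to 5837 in B6-Y and 495 to 12642 in B6-O. Of 12 tested light chain constant and joining genes, 12 rose in F1-P against B6-Y (16.2% of all genes called in either direction) and 8 in F1-L against B6-O (11.6% of all genes), or 12 without B6-O 3 (16.2% of all genes). In F1-L against F1-P 0 were called (0.0279% of all genes), and 3 had an unadjusted p under 0.05, all lower, against 12.8% of all genes. A call throughout is a limma test on log2(value + 1) fitted on all genes, with a threshold of 0.05 on the Benjamini-Hochberg adjusted p and a minimum fold change of 1.5.

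Plasma cell markers followed the same order. The 14 markers summed to normalised values of 10651 to 14197 in F1-L, 15566 to 40149 in F1-P, 1129 to 2480 in B6-Y and 537 to 2966 in B6-O, and to 345 to 698 in CMP samples. Sdc1 had values of 182 to 211 in F1-L, 228 to 489 in F1-P, 56.7 to 95.2 in B6-Y and 30.2 to 59.9 in B6-O. All 14 rose in F1-P against B6-Y (16.2% of all genes called), and 11 of 14 rose in F1-L against B6-O (11.6% of all genes), or 14 without B6-O 3. In F1-L against F1-P 0 of 14 were called (0.0279% of all genes) and 3 had an unadjusted p under 0.05 (12.8% of all genes). Jchain, which links antibody units into polymers and is a plasma cell gene, lay at 8063 to 10851 in F1-L, 12939 to 33325 in F1-P and 116 to 2098 in the B6 samples. Of the 5 genes listed for antibody assembly and secretion (Jchain, the chaperones Hsp90b1 and Hspa5, Mzb1, and the transcriptional coactivator Pou2af1), 5 rose in F1-P against B6-Y and 4 in F1-L against B6-O, or 5 without B6-O 3, against the same shares of all genes. Mature B cell markers (10 genes) summed to 614 to 774 in F1-P and 409 to 520 in B6-Y, and to 393 to 468 in F1-L and 199.6 to 375 in B6-O, without overlap in either pair or between F1-L and F1-P. Of those tested, 3 of 8 were called higher in F1-P against B6-Y (16.2% of all genes called) and 3 of 10 in F1-L against B6-O (11.6%). Without B6-O 3 it was 6 of 10 (16.2%). Single markers were mixed, with 5 of 8 above 0 in F1-P against B6-Y and 9 of 10 in F1-L against B6-O. In F1-L against F1-P 0 of 10 were called and 3 were above 0. There 2 were higher and 3 lower at an unadjusted p under 0.05 (12.8% of all genes). T cell markers (6 genes) summed to 51.0 to 124 in F1 and 10.5 to 43.0 in B6 LSK samples. Against the same shares of all genes, 4 of 6 were called higher in F1-P against B6-Y and 2 of 6 in F1-L against B6-O, or 4 of 6 without B6-O 3. The part of plasma cells, B cells and T cells in the light chain values was not tested, and in bulk samples fewer cells of a type and less RNA per cell cannot be told apart.

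Summed values of genes that act before a light chain exists did not share this order, though single genes differed in direction. The recombination machinery (Rag1, Rag2 and Dntt) summed to 213 to 269 in F1-L, 333 to 1567 in F1-P, 833 to 1173 in B6-Y and 621 to 939 in B6-O. Dntt, the enzyme that adds untemplated bases at the joins, fell in F1-L against B6-O by 1.74 on the log2 scale (SE 0.202, limma adjusted p = 0.00246), with values of 197 to 244 against 588 to 894, and by 1.77 without B6-O 3 (SE 0.204, adjusted p = 0.00279). Rag1 and Rag2, which cut the DNA, were called in no comparison of all samples, and without B6-O 3 Rag2 fell in F1-L against B6-O by 1.49 (SE 0.343, limma adjusted p = 0.0307). The genes listed with the surrogate light chain, a stand-in for a light chain on pre-B cells, were Vpreb1, Vpreb2, Vpreb3 and Igll1. They had 0 of 4 calls in each limma comparison. Their sum was 50.8 to 153 in B6-Y, 6.49 to 10.96 in B6-O, 20.8 to 111 in F1-P and 5.48 to 25.1 in F1-L. In B6-O against B6-Y all 4 had an unadjusted p under 0.05, with B6-O 3 and without it. All were lower in B6-O, against 6.62% of all genes with it. Fitted differences were above 0 for 4 of 4 in F1-L against B6-O and 1 of 4 in F1-P against B6-Y. A wider list of 10 pro-B and pre-B cell genes added Il7r, Ebf1 and Blnk. In F1-L against B6-O 8 of 10 were above 0, with 1 called higher and 1 lower (11.6% of all genes called). In F1-P against B6-Y 4 of 10 were above 0 and 0 were called.

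Member by member, the strain difference was broad. The family was chosen by this contrast, so counts of calls and fitted differences between the strains are given as descriptions, with no p. Of the 103 members, 96 passed the filter on low values in F1-P against B6-Y and 84 of them rose, against 16.2% of all genes called in that comparison in either direction. In F1-L against B6-O, 92 passed and 60 rose, against 11.6% of all genes, and 0 fell in either comparison. A member could pass the filter through its F1 samples alone, so these counts describe the tested members and not all 103. The count in F1-L against B6-O was 80 without B6-O 3 (16.2% of all genes called) and between 26 and 34 when any of the other samples was left out. The deposited value was higher in all 6 F1 samples than in all 6 B6 samples for 61 of 100 tested members and lower for 0, against 15.3% of all genes that did not overlap in either direction. The F1 comparisons with B6-Y and with B6-O use separate control samples, whereas comparisons that share F1-P or F1-L samples are not independent of each other.

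Igkv14-130, at chr6:67791046-67791511 in the distal part of the kappa locus, had the largest rise in F1-P against B6-Y. Its normalised values were 679, 554 and 9582 in F1-P and 1.52, 0.304 and 1.51 in B6-Y, a log2 difference of 9.57 (SE 0.977). Its value in the F1-L samples was 51.9, 70.0 and 554, and in the B6-O samples it was 0.405, 0 and 8.46. So 1 F1-P sample was far above the other F1 samples, and all B6 samples lay below the lowest F1 sample.

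Igkv1-133 and Igkv20-101-2 were among the largest rises in both strain comparisons. Igkv1-133 stood at 723, 749 and 693 in F1-P and 0.992, 1.96 and 3.13 in B6-Y, a log2 difference of 7.96 (SE 0.245). F1-L samples had 320, 393 and 436 and B6-O samples 0.498, 0 and 2.11, a log2 difference of 7.83 (SE 0.394). Its neighbour Igkv1-132 rose by 7.43 in F1-P against B6-Y (SE 0.563), from 0.434, 0.709 and 6.47 to 399, 560 and 415. Igkv20-101-2 rose by 7.61 in F1-P (SE 0.982) and by 7.42 in F1-L (SE 0.730), and Igkv1-88 rose by 7.44 in F1-P (SE 0.932).

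The other large rises in F1-L against B6-O were those of Igkv12-89, Igkv6-32 and Igkv4-53. Igkv12-89 had values of 996, 5123 and 730 in F1-L against 2.12, 0 and 48.1 in B6-O, a log2 difference of 8.18 (SE 1.41). Igkv6-32 differed by 7.74 (SE 0.901) and Igkv4-53 by 6.85 (SE 0.427). The call of Igkv12-89 was lost when B6-O 1, F1-L 1 or F1-L 2 was left out, with log2 differences of 7.32 to 8.499, and under edgeR's quasi-likelihood test, with 7.09. Without B6-O 3, the log2 difference was 8.28 for Igkv1-133, 7.40 for Igkv20-101-2, 9.78 for Igkv12-89, 8.72 for Igkv6-32 and 7.34 for Igkv4-53.

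Igkv14-126 and Igkv5-39, the members with the highest mean share in B6-Y, were called in neither strain comparison of all samples. Igkv14-126 had values of 478, 1536 and 1831 in B6-Y and 1587, 8647 and 12704 in F1-P, which overlapped (log2 difference 2.34, SE 0.831). In B6-O it had 244, 99.7 and 3099, below the 5776, 6857 and 9644 of F1-L, again without a call (log2 difference 4.10, SE 1.15). Igkv5-39 differed by 1.28 in F1-P against B6-Y (SE 0.888) and by 2.03 in F1-L against B6-O (SE 1.09). Without B6-O 3 both were called in F1-L against B6-O, with log2 differences of 5.53 (SE 0.422) for Igkv14-126 and 3.27 (SE 0.664) for Igkv5-39.

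Dividing each gene's reads by all light chain V reads of its sample showed which genes made up the light chain transcripts. Igkv14-126 led all 6 B6 samples, with 37.2%, 35.2% and 40.4% of light chain V reads in B6-Y and 33.8%, 25.5% and 42.2% in B6-O. It held 4.61%, 10.6% and 15.3% in F1-P and 20.1%, 18.6% and 19.99% in F1-L. No B6 sample came as low as any F1 sample, and F1-L did not overlap F1-P, which had the lowest shares. Igkv5-39 had the next highest mean in B6-Y, at 5.77%, 16.1% and 11.2%, and 6.41%, 7.71% and 6.98% in B6-O. In F1 samples it lay between 0.528% and 2.03%, below all B6 samples.

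F1-P samples had no common leader. The leading gene was Igkv15-103 in F1-P 1 with 18.9%, Igkv1-88 in F1-P 2 with 13.9% and Igkv14-126 in F1-P 3 with 15.3%. All 3 F1-L samples were led by Igkv14-126, followed by Igkv17-127 at 12.8% in F1-L 1, Igkv12-89 at 13.9% in F1-L 2 and Igkv12-98 at 7.41% in F1-L 3. Igkv12-98, named here after its values were seen, reached at most 0.632% in any other LSK sample.

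Several leading genes stood far higher in 1 or 2 samples than in the rest. Igkv14-130 held 11.5% in F1-P 3 and at most 1.97% elsewhere, and Igkv16-104 held 8.24% in B6-Y 1 and at most 1.84% elsewhere. Igkv12-44 held 12.1% in B6-O 2 against 0.539% to 6.29% in the other samples. Igkv4-59 held 5.31% in B6-Y 1 and 3.85% in F1-P 2, and 0.00809% to 0.700% in the rest. Group SDs of such genes were large beside the means, at 7.06% ± 4.43 for Igkv12-44 in B6-O, 6.49% ± 5.97 for Igkv17-127 in F1-L and 4.73% ± 5.93 for Igkv14-130 in F1-P (SD, n = 3).

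**Figure D2:**
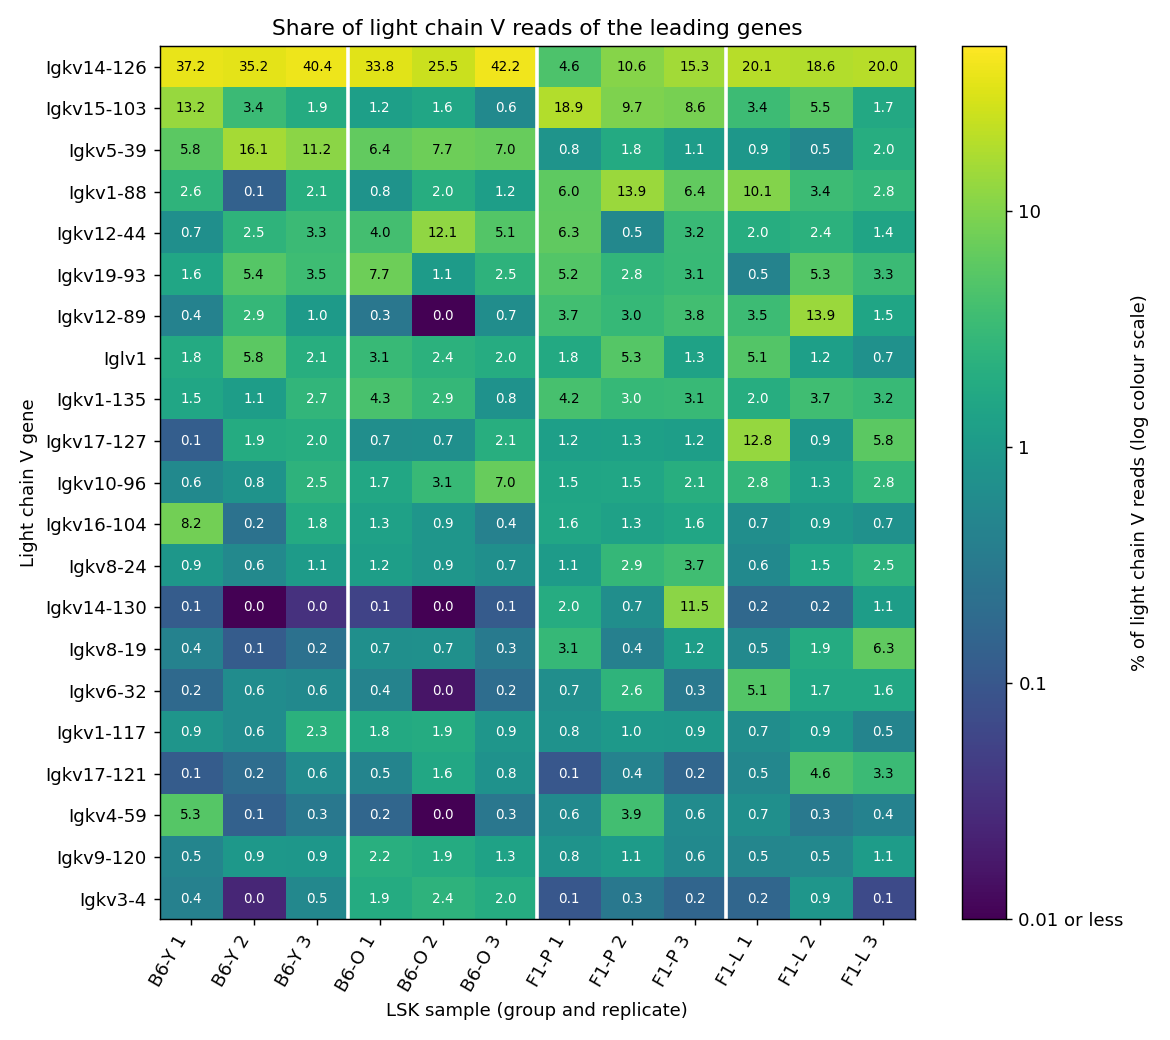
Percent of light chain V reads held by the 21 genes that ranked in the top 10 by mean share in any LSK group (rows) in each of the 12 LSK samples (columns), with colour on a log scale and the percentages printed. Igkv14-126 is at 25.5% to 42.2% in the B6 columns and 4.61% to 20.1% in the F1 columns, and Igkv5-39 is at 5.77% or more in the B6 columns and 2.03% or less in the F1 columns.

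Over all members, shares differed without overlap between the 6 F1 and the 6 B6 samples for 13 genes, and overlapped for 90. No such share exists for genes outside the family, so these counts have no background over all genes. The 10 higher in F1 were Igkv1-133, Igkv1-132, Igkv1-131, Igkv14-130, Igkv20-101-2, Igkv1-88, Igkv4-57, Igkv4-53, Igkv1-35 and Igkv3-1, and the 3 higher in B6 were Igkv14-126, Igkv5-39 and Igkv4-55. Of these, Igkv1-131, Igkv4-57, Igkv1-35, Igkv3-1 and Igkv4-55 are named after their values were seen.

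Some of the 13 sat side by side on the chromosome. Igkv1-133, Igkv1-132, Igkv1-131 and Igkv14-130 occupy chr6:67724902-67791511 at the distal end of the locus. Igkv1-131 held 0.169% to 0.277% of light chain V reads in F1, and all 6 B6 samples together had 6 of its reads against 13273 in F1. Igkv1-133 held 0.833% to 2.10% in F1 and at most 0.0771% in B6, with 72187 and 260 reads. Igkv14-126, which lies further toward the joining genes, differed in the opposite direction. Igkv1-35 had no read in any B6 sample, but its share in F1 was at most 0.00335%, so its difference rests on few reads.

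**Figure D3:**
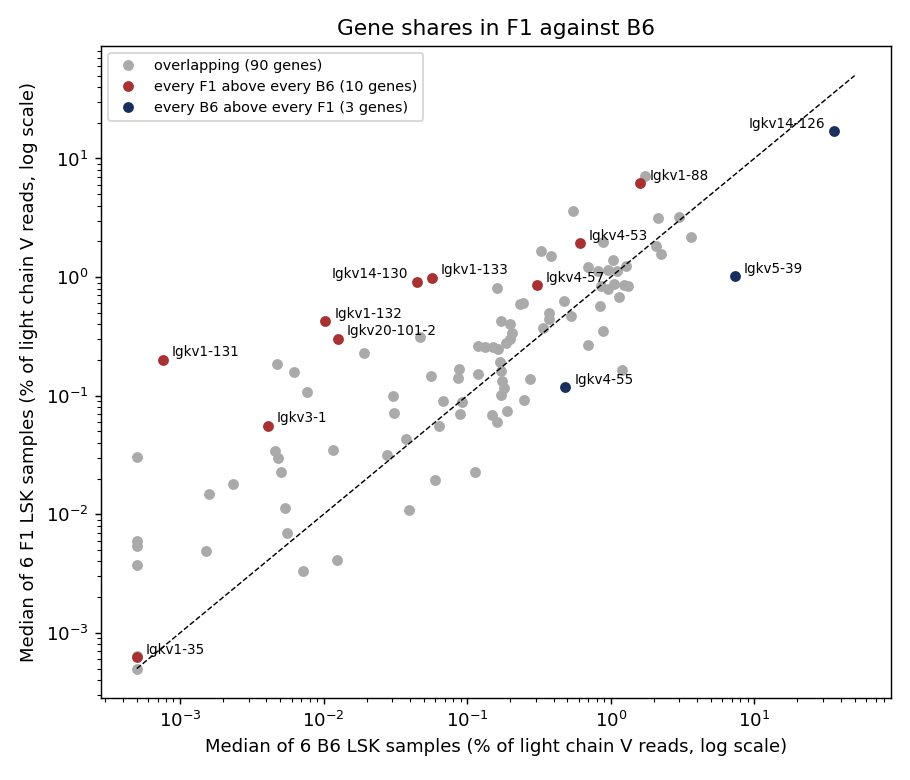
Median percent of light chain V reads over the 6 F1 LSK samples (y axis, log scale) against the median over the 6 B6 LSK samples (x axis, log scale), 1 point a gene, with medians under 0.0005% drawn at 0.0005% and the dashed line marking equal shares. The 10 red genes were higher in every F1 than in every B6 sample, the 3 dark blue genes were the reverse, and 90 grey genes overlapped.

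Igkv14-126 with Ighv11-2 is known as a light and heavy pair of B-1a cells, an innate-like B cell subset, that binds phosphatidylcholine. Ighv11-2 (chr12:114048241-114048812), looked up after the light chain shares were seen, held 28.01%, 19.5% and 33.8% of heavy chain V reads in B6-Y and 24.9%, 17.8% and 31.7% in B6-O. In F1-P it held 0.163%, 0.342% and 0.648%, and in F1-L 0.708%, 0.832% and 0.843%. Ighv12-3, another heavy gene known from phosphatidylcholine-binding B-1a cells and looked up with it, held 0.182% to 2.14% in B6 and 0.204% to 1.64% in F1 samples, which overlapped. Igkv14-126 and Ighv11-2 were thus lower in share in all F1 than in all B6 samples, and Ighv12-3 was not. These are shares of a larger immunoglobulin total in F1. In normalised value, Ighv11-2 had 28.6 to 235 in F1 and 43.9 to 884 in B6 samples, which overlapped. Whether the light and heavy transcripts came from the same cells was not measured.

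Reads were spread over more genes in F1 than in B6 samples. The effective number of genes is the inverse Simpson index, the count of equally used genes that would give the same chance that 2 reads share a gene. It was 5.82, 6.195 and 5.44 in B6-Y and 7.49, 10.6 and 5.13 in B6-O, against 17.1, 18.8 and 16.7 in F1-P and 12.6, 14.1 and 15.6 in F1-L. F1 and B6 did not overlap, and every F1-L sample was below every F1-P sample, at a ratio of geometric means of 0.801. F1-P was 3.02-fold above B6-Y and F1-L was 1.89-fold above B6-O, or 1.57-fold without B6-O 3, whereas B6-O and B6-Y overlapped. The leading gene alone carried much of the strain difference: with each sample's leader left out, F1-P was 1.76-fold above B6-Y and F1-L stood at 0.973 of B6-O. The 3 leading genes of each sample held 45.4% to 58.7% of light chain V reads in B6 and 31.2% to 43.0% in F1.

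The order was the same at equal depth. With the reads of each LSK sample thinned to 12357, the lowest light chain V total, the effective number was 5.14 to 10.6 in B6 and 12.7 to 18.6 in F1. At that depth 68 to 91 members had a read in B6 samples and 89 to 95 in F1 samples. Unthinned, 101 to 103 members had reads in F1 and 68 to 100 in B6 samples. Of the 103 members, 65 had reads in every LSK sample, 57 passed 1% of light chain V reads in at least 1 LSK sample, 1 (Igkv14-126) passed it in every sample, and 10 stayed under 0.1% throughout.

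**Figure D4:**
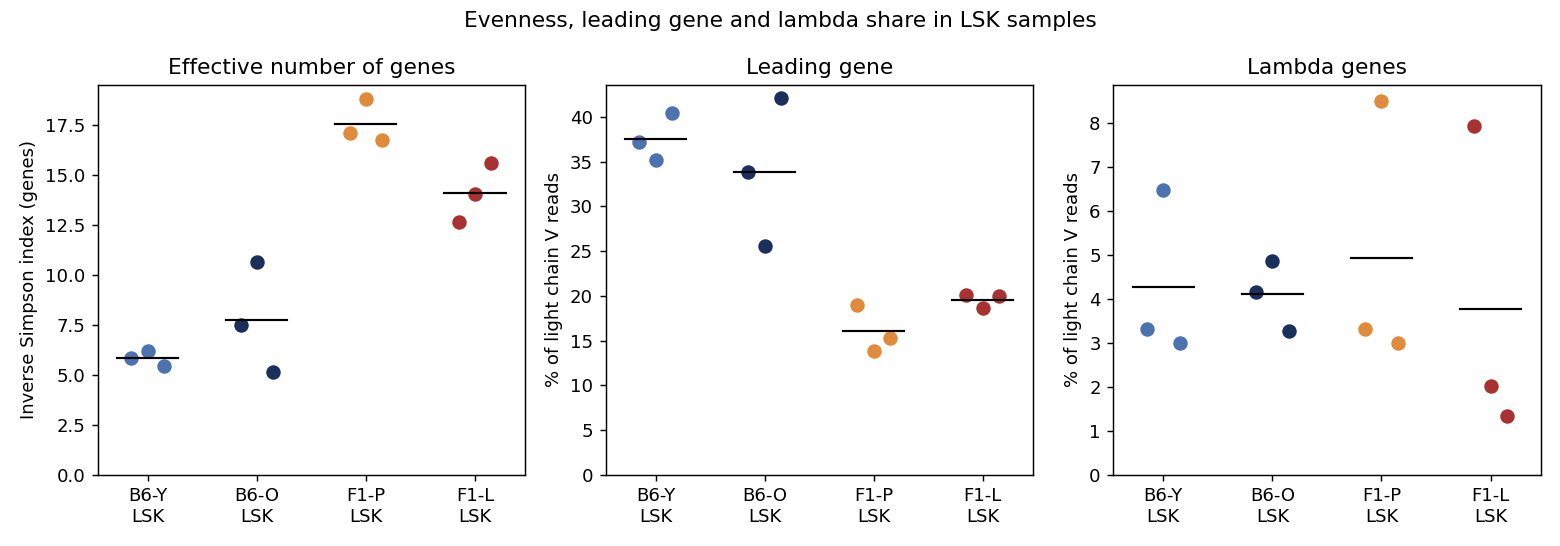
Effective number of light chain V genes (left, inverse Simpson index), share of the leading gene (middle, percent of light chain V reads) and share of the lambda genes (right, percent) in the LSK groups, with a point for each sample and a line at each mean (n = 3). The 6 F1 samples have effective numbers of 12.6 to 18.8 and the 6 B6 samples 5.13 to 10.6, while the lambda shares of all groups overlap.

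With all members counted, samples of a strain mostly shared more of their use than samples of different strains. The percent of use shared by a pair of samples, summed over members as the smaller of both shares, had a median of 65.8 over the 12 pairs within a group (60.9 to 76.1) and of 62.9 over the 18 pairs of the same strain in different groups (48.5 to 79.7). Between strains it had a median of 50.2 over 36 pairs (38.1 to 58.4). With Igkv14-126 left out, the 15 pairs of B6 samples had 27.9 to 46.8 (median 37.6). The 36 pairs between strains had 27.6 to 41.6 (median 35.5), which overlapped, and the 15 pairs of F1 samples had 42.3 to 60.2 (median 46.8). The remaining shares were not rescaled to their new total, so pairs in which Igkv14-126 was high had to fall most. These values therefore cannot show how alike the B6 samples were in their other genes. Pairs share samples and are given as a description.

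Lambda use did not separate the groups. The lambda genes held 3.32%, 6.48% and 3.00% of light chain V reads in B6-Y, 4.17%, 4.86% and 3.28% in B6-O, 3.31%, 8.51% and 2.99% in F1-P and 7.94%, 2.01% and 1.34% in F1-L. Sampling error does not span these values, since the exact 95% interval in F1-L 1 was 7.87% to 7.999% and that in F1-L 3 was 1.32% to 1.36%. Within F1-L and F1-P, 1 sample each (F1-L 1 and F1-P 2) was well above the others of its group. Lambda constant reads, as a percent of kappa and lambda constant reads, gave 5.35% in F1-L 1 and 5.69% in F1-P 2 against 1.14% to 2.39% in the other F1 samples, the same 2 samples standing apart.

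Among the 3 lambda V genes, Iglv1 had the largest mean share in all 4 LSK groups. Its share was 1.85%, 5.84% and 2.06% in B6-Y, 3.12%, 2.40% and 1.97% in B6-O, 1.76%, 5.33% and 1.35% in F1-P and 5.12%, 1.23% and 0.742% in F1-L. Iglv2 ran from 0.364% to 2.62% and Iglv3 from 0.133% to 1.29% over the 12 samples. In normalised value all 3 rose in both strain comparisons, by 4.09 to 5.38 in F1-P against B6-Y and by 4.19 to 4.25 in F1-L against B6-O on the log2 scale, or 5.29 to 5.32 without B6-O 3. None was called by limma in F1-L against F1-P, where Iglv2 had the largest difference, of -1.89 (SE 0.611, limma adjusted p = 0.279). edgeR's likelihood ratio test called Iglv2 lower, by -2.08 (adjusted p = 0.0346).

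The kappa genes lie over chr6:67555497-70704177, with Igkj1 starting at 70722562, and 38 are on the strand of the joining genes and 62 on the other. The locus was divided by gene order into distal, middle and proximal parts of 33, 33 and 34 genes. Distal genes held most kappa reads in each group, with 65.4% ± 4.80 in B6-Y, 61.1% ± 7.97 in B6-O, 53.5% ± 5.33 in F1-P and 56.6% ± 6.31 in F1-L (SD, n = 3). Middle genes held 12.6% to 25.8% in B6 and 17.9% to 35.1% in F1 samples, and every F1-P sample was above every B6-Y sample. Proximal genes held 12.4% to 23.8% with all groups overlapping. Genes on the strand of the joining genes held 62.3% ± 7.93 of kappa reads in B6-Y and 48.1% ± 4.40 in F1-P, with ranges of 54.5% to 70.4% and 45.4% to 53.2% that did not overlap. In the older mice they held 49.4% to 60.1% in B6-O and 45.8% to 57.7% in F1-L, which overlapped.

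By gene family, the difference between strains followed the few leading genes. The 4 Igkv14 genes held 39.4% ± 1.59 of light chain V reads in B6-Y, 35.0% ± 7.89 in B6-O, 15.6% ± 11.2 in F1-P and 21.9% ± 2.47 in F1-L. The 10 Igkv1 genes held 3.18% to 9.22% in B6 and 11.04% to 22.7% in F1 samples without overlap. The 5 Igkv5 genes held 7.48% to 18.3% in B6 and 1.43% to 7.45% in F1 samples, which likewise did not overlap. Igkv4, the largest family with 26 genes, held 3.78% to 11.7% with the strains overlapping.

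**Figure D5:**
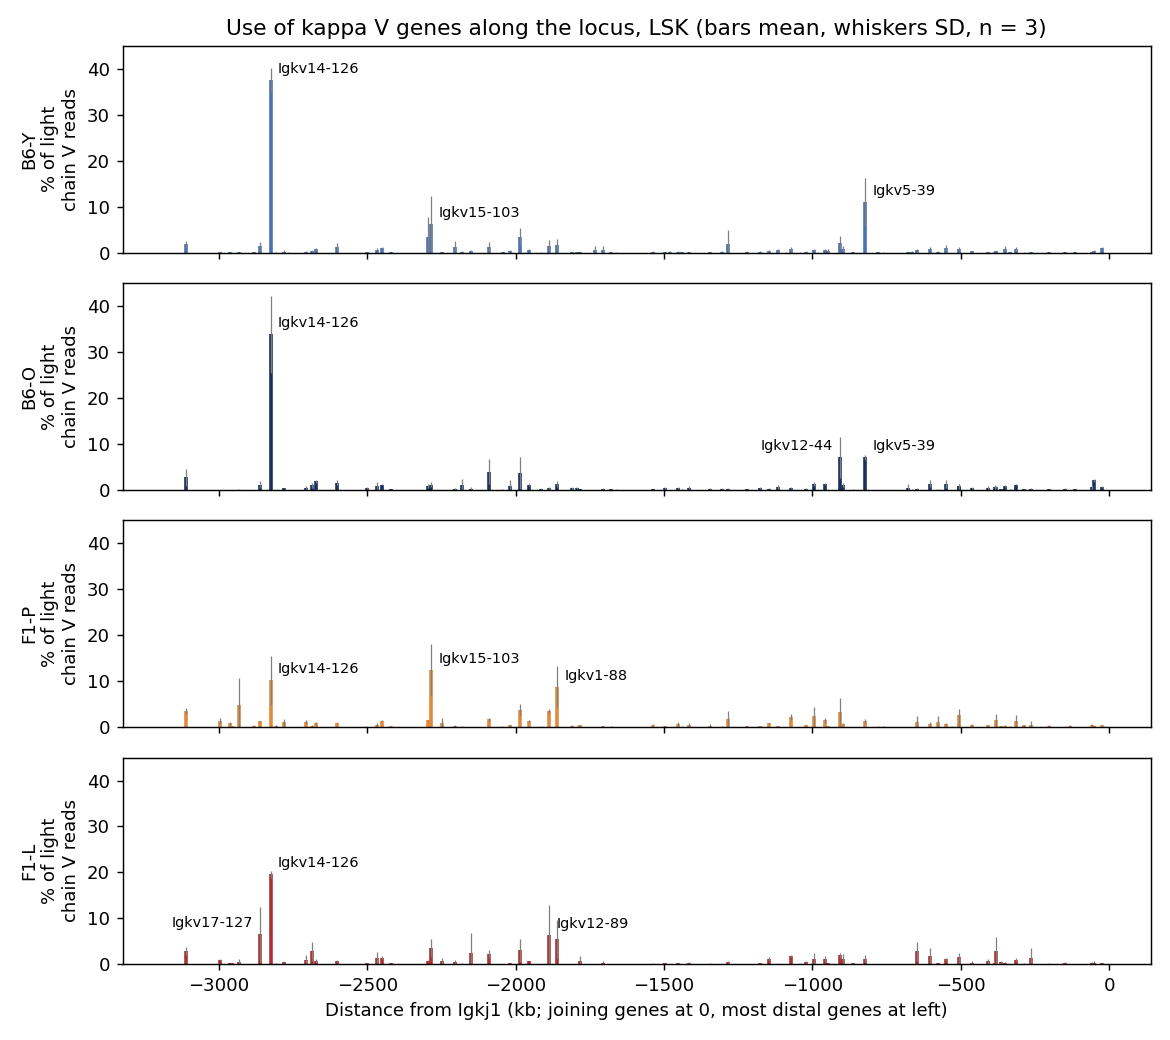
Mean percent of light chain V reads of each kappa V gene (y axis, bars, with SD as grey whiskers, n = 3) by its distance from Igkj1 (x axis, kb, distal genes at left) in the 4 LSK groups. The 3 genes with the highest means are named in each panel. Igkv14-126 at 33.8% or more stands above all other genes in both B6 panels, while the F1-P panel has several genes of like height and the F1-L panel is led by Igkv14-126 at 19.6%.

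Within NZBW/F1 mice, 1 member fell in F1-L against F1-P. This was Igkv4-58, with values of 118, 117 and 134 in F1-P and 9.21, 3.30 and 5.12 in F1-L, a log2 difference of -4.26 (SE 0.294, limma adjusted p = 0.0251). In the B6 samples it ranged from 0 to 11.5. It was the only call among 100 tested members, against 0.0279% of all genes called in this comparison, and it was lost without F1-P 2, without F1-L 3, when all 12 LSK samples were fitted together and with the replicate number as a block, while its log2 difference stayed between -4.30 and -4.23. Igkv4-58 held at most 0.342% of light chain V reads in any LSK sample.

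A further 25 members had an unadjusted p under 0.05 in F1-L against F1-P without passing the adjustment, 24 of them lower in F1-L, against 12.8% of all genes with such a p in either direction. The deposited values of 21 of the 100 tested members were lower in every F1-L than in every F1-P sample and those of 0 were higher, against 7.29% of all genes lower and 17.7% in either direction. The median log2 difference was -0.94 over the tested members and -0.01 over all genes. On whole reads, edgeR's quasi-likelihood test called 1 member lower (0.0209% of all genes called), edgeR's likelihood ratio test called 18 lower and 1 higher (4.58% of all genes), and DESeq2 called 18 lower (5.12% of all genes). Neutrophil markers (6 genes) summed to 1699 to 10779 in F1-L and 262 to 1138 in F1-P samples, without overlap, and their part in the light chain differences was not tested.

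In share of light chain V reads, 4 of 103 members were higher in every F1-L than in every F1-P sample and 13 were lower. Such shares exist only within the family, so these counts have no background over all genes and are a description. In value, 17.7% of all genes did not overlap between these groups in either direction. The largest of the lower ones was Igkv15-103, with 18.9%, 9.68% and 8.59% in F1-P and 3.40%, 5.52% and 1.71% in F1-L. Its values of 6514, 7884 and 7136 in F1-P against 979, 2038 and 824 in F1-L did not give a limma call, with a log2 difference of -2.599 (SE 0.435, adjusted p = 0.172), but the likelihood ratio test and DESeq2 on whole reads called it, as did limma with no scaling factor. In B6 it held 13.2% in B6-Y 1 and at most 3.37% in the other samples. Igkv16-104 held 1.32% to 1.56% in F1-P and 0.672% to 0.928% in F1-L.

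The 4 with a higher share in F1-L were Igkv14-126, Igkv17-121, Igkv4-81 and Igkv4-78, of which the last pair stayed at 0.0534% or less in F1 and is named after the values were seen. Igkv17-121 held 0.101%, 0.438% and 0.167% in F1-P and 0.510%, 4.60% and 3.32% in F1-L, with a log2 difference of 2.601 in value (SE 1.14, adjusted p = 0.405). Igkv14-126 had overlapping values in F1-P and F1-L (log2 difference 0.38, SE 0.911, adjusted p = 0.916). That difference turned to -0.05 under the count-based tests. Igkv1-132 held 0.4998% to 1.16% in F1-P and 0.292% to 0.350% in F1-L, with a log2 difference of -1.89 in value (SE 0.233, adjusted p = 0.116).

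Age in C57BL/6 mice gave no call. Of 78 members tested in B6-O against B6-Y, 0 were called by limma, which called 0% of all genes, and 6 had an unadjusted p under 0.05, all lower in B6-O, against 6.62% of all genes. The quasi-likelihood test also called 0 members and 0% of all genes, the likelihood ratio test called 1 member lower (0.814% of all genes) and DESeq2 called 2 lower (1.48% of all genes). Without B6-O 3, limma called 4 members, all lower (0.35% of all genes called). The smallest p belonged to Igkv15-103, with values of 170, 147 and 85.0 in B6-Y and 8.74, 6.13 and 41.4 in B6-O (log2 difference -3.18, SE 0.635, adjusted p = 0.261). Its groups did not overlap, and it was called without B6-O 3 (log2 difference -3.96, SE 0.302).

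The test of whether the difference between older and younger mice was unlike in the strains, an interaction over all 12 LSK samples, called 0 of 100 tested members with limma and 0% of all genes. At an unadjusted p under 0.05 there were 7 members, 1 of them above 0, against 3.92% of all genes, and the likelihood ratio test called 0 members. The median interaction over the tested members was -0.53, with 32 of 100 above 0. Without B6-O 3 limma again called 0, but the median turned to 0.31, with 57 of 100 above 0. There 12 members had an unadjusted p under 0.05, 9 of them above 0, against 849 of 14956 genes. The direction thus depended on B6-O 3. Igkv4-58 had an interaction of -3.81 on the log2 scale (SE 1.29, adjusted p = 0.977).

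In CMP the same genes were near the limit of detection, with 529, 230 and 913 light chain V reads in the F1-L samples and 747, 3853 and 8371 in the F1-P samples. A count of 0 for a member in the shallowest of these, F1-L 2, allows a share of up to 1.30% of its light chain V reads. Of the 103 members, 27 had no CMP read or were not in that table. Only 17 passed the filter on low values, and 0 of them were called in F1-L against F1-P by limma, against 0.00774% of all genes. All 17 had lower means in F1-L and 9 had an unadjusted p under 0.05, against 9.8% of all genes. A member could pass the filter through its F1-P samples alone, so the direction of these 17 is a description. Without the filter, 9 of 76 members had higher means in F1-L. The quasi-likelihood test called 0 members (0.00774% of all genes), the likelihood ratio test 3 (2.38% of all genes) and DESeq2 3 (2.72% of all genes), all lower, and limma called 3 without F1-P 1 (3.4% of all genes).

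Use in CMP differed from sample to sample. The leaders were Igkv12-44 at 12.2%, Igkv12-89 at 7.89% and Iglv1 at 7.60% in the F1-P samples, and Igkv14-126 at 26.1%, Igkv1-88 at 11.3% and Igkv20-101-2 at 12.8% in the F1-L samples. The effective number was 24.0, 24.8 and 30.9 in F1-P and 6.79, 21.4 and 16.7 in F1-L, without overlap, at 230 to 913 reads in F1-L and 747 to 8371 in F1-P. In F1-L 1 of CMP, Igkv14-126 and Igkv17-127 held 26.1% and 23.4%, and the LSK sample with the same group and number had them as its leaders too, at 20.1% and 12.8%. Whether the LSK and CMP samples of a number come from the same mouse is not stated by the labels. Neutrophil markers summed to 269, 5641 and 7378 in F1-P and 56.6 to 383 in F1-L of CMP, and mature B cell markers (10 genes) to 107, 276 and 333 and to 77.1 to 116, with F1-P 1 overlapping F1-L in both. Their part in the CMP values was not tested.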

How the data were processed

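Single-end 75-base RNA sequencing was done by the authors on sorted LSK (12 samples) and CMP (6 samples), and reads were aligned to mm10 with STAR 2.6, counted per gene with HTSeq and scaled with edgeR, per the study's methods and the submitters' processing notes. How HTSeq treated reads that match several genes is not given in the sources used here. The deposited values are a signal in CPM of a scaled library size, and a column's total lay between 832403 and 1387186 in the LSK table and between 967456 and 1033223 in the CMP table. Whole reads were recovered from the steps of these values (100.0% of values within 0.02 of a whole read) and were used for shares, exact 95% binomial intervals, floors of 3 counts, and count-based alternatives. Intervals and floors cover counting error only.

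Genes were matched to GENCODE M21 (19770 of 19780 in LSK and 18421 of 18428 in CMP), which also gave coordinates and transcripts on GRCm38. limma 3.58.1 (R 4.3.3) with a mean trend was fitted on log2(value + 1) for genes that reached a value of 1 in 3 or more samples of the comparison, on the 6 samples of each pair of groups or on all 12 LSK samples for the interaction. Fold changes are on that scale, which understates changes of low genes. Thresholds for a call were 0.05 on the Benjamini-Hochberg adjusted p and 1.5 on the fold change. edgeR 4.0.16 and DESeq2 1.42.0 on whole reads were alternatives, as were other pseudocounts, filters and scalings, the replicate block and leaving out each sample. limma without the mean trend, and the list genes without B6-O 3, were added after seeing the data. Shares, evenness and lambda use were compared by whether groups overlap, with no p. Labels do not say whether samples are separate mice or pools. The study's figure legend for CMP gives an n per replicate without saying what was counted. The p-values therefore measure the spread between these samples. No 2 samples of a group agreed within sampling noise; other pairs were not compared.

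Genes named are (a) the 10 members with the highest mean share in each LSK group and the 3 highest in each CMP group, (b) the lambda genes, (c) up to 5 called members with the largest rise or fall in each comparison among those whose groups do not overlap and whose mean value is at least 5, and (d) the listed marker and pathway genes. Members and lists were chosen with earlier results of these data known. On simulated counts for F1-L against F1-P, limma called 46 of 198 genes changed 2-fold, with 4 unchanged genes called among 14035, and 181 of 198 changed 4-fold, with 16 unchanged called among 14061. No per-sample column went unmapped. Shares were computed with Python 3.11.15, numpy 2.4.6, pandas 2.3.3 and scipy 1.17.1, identities with Biopython 1.88 and figures with matplotlib 3.10.9. Of the mature B cell markers listed, 1 is not reported here and stays out of that list's sums and counts.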

Additional observations from a re-analysis of the deposited data

Results flagged for a closer look

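Of the 12 light chain V pseudogenes in the LSK table, which the comparisons do not use, 3 had a share above the B6 level in every F1 sample. Igkv1-115 had 2458 reads over the 6 F1 LSK samples and 1 over the 6 B6 LSK samples, Igkv1-108 had 3937 and 6, and Igkv4-60 had 354 and 1. Igkv4-60 thus held 0.00531% of light chain V reads over the F1 samples. A count of 0 allows up to 0.00137% to 0.0243% in single B6 samples, so its difference rests on few reads. The highest sample was F1-L 1 for Igkv1-115 (1169 reads) and Igkv1-108 (1873 reads), and F1-L 2 for Igkv4-60 (272 reads).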

How the results depend on the processing

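Among counts of called members and ratios of shares, evenness, leader and lambda use, 251 alternative values were classed as little changed. Another 10 were weaker, 9 stronger, 3 moved and 1 reversed, and the cause was not tested. The little-changed class includes ratios that crossed 1. The lambda ratio of F1-P to B6-Y went from 1.093 to 0.784 without F1-P 2. That of B6-O to B6-Y went from 1.01 to 0.873 without B6-Y 3. The ratio of leading gene shares in B6-O to B6-Y went from 0.883 to 1.006 without B6-O 2. In F1-L against F1-P the 1 called member became 6 with no scaling factor, 18 with DESeq2, 19 with the likelihood ratio test and 0 with all 12 LSK samples in one fit. In F1-L against B6-O the 60 became 35 with the quasi-likelihood test. B6-O against B6-Y went from 0 to 2 with DESeq2 and 1 with the likelihood ratio test, and CMP from 0 to 3 and 3. The replicate block left 0 members in F1-L against F1-P, 71 in F1-L against B6-O and 91 in F1-P against B6-Y, and 0 in the other comparisons, but same-numbered samples are not paired by the labels and in no comparison did all 3 pairs correlate above 0.1 (r from -0.45 to 0.62). Leaving out each sample gave 0 to 1 members in F1-L against F1-P, 26 to 80 in F1-L against B6-O, 65 to 81 in F1-P against B6-Y, 0 to 4 in B6-O against B6-Y and 0 to 3 in CMP. The effective number in F1-L against B6-O was 1.44-fold with the exponential of the Shannon entropy and reversed to 0.973 without each sample's leader, and in F1-P against B6-Y it was 2.19-fold and 1.76-fold. Among named genes in F1-L against F1-P, the log2 difference of Igkv14-126 turned from 0.38 to -0.0455 with both edgeR tests and -0.0494 with DESeq2, and ran from -0.53 to 0.97 as samples were left out. That of Igkv8-19 turned from -0.01 to 0.23 with no scaling factor and 0.72 with edgeR and DESeq2, and ran from -1.08 to 1.05, and that of Igkv12-89 ran from -1.33 to 0.0724. Scaling recomputed without immunoglobulin genes gave 1, 61, 84, 0 and 0 called members in the 5 comparisons, and limma without its mean trend, tried after seeing the data, gave 1, 59, 82, 0 and 0. With no scaling factor the median of all genes shifted by 0.22 in F1-L against F1-P, -0.28 in F1-L against B6-O and -0.53 in F1-P against B6-Y, so levels there are relative to that shift. Depth limits the CMP values, at 230 to 8371 light chain V reads a sample.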
